A study of Phyllostachys edulis with 2 samples.

Results

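PH02Gene00562 and PH02Gene01505 are 2 moso bamboo genes that the study lists as orthologs of the Arabidopsis gene AT5G62940, known as DOF5.6 or HCA2. They were taken from the deposited tables by these identifiers, as 2 of 50936 genes, and both passed the filter on low counts. Protoplasts of moso bamboo (*Phyllostachys edulis*) basal root tips, 2 cm long and digested with cell wall enzymes for 3 h, were captured as single cells in droplets. The study holds 2 biological replicates of this condition, each a library of its own, without any treated or control group. Transcripts were counted through unique molecular identifiers (UMIs), so the values are numbers of molecules. Only cells in which over 500 genes and over 500 UMIs were found were used. Replicate 1 held 7653 cells with a median of 3130 UMIs and replicate 2 held 7651 cells with a median of 3565 UMIs, and 15 cell barcodes occurred in both libraries. The kept cells fell into 15 clusters. A cluster is called by a number of the study, as in matched Cluster 7, where marker genes fixed for that number were highest in it, and by its size where it took no number. Levels are given as CPM, the UMIs of a gene summed over the cells of a cluster in each replicate and scaled to a common total.

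DOF factors are transcription factors of plants that bind DNA through a zinc finger of their own type. In Arabidopsis, HCA2 acts in the vascular cylinder, where it promotes divisions of procambium, the dividing tissue from which phloem and xylem arise. Its relatives TMO6 and the PEAR factors act in the cells on the phloem side of the same tissue. The name vascular therefore comes from Arabidopsis. The study placed its Clusters 7, 8, 11 and 12 in the root cap, Cluster 9 in initial cells, Cluster 2 in transition cells, Cluster 6 in the epidermis and Clusters 0, 1, 5 and 10 in ground tissue, and left Clusters 3 and 4 undefined. None of its numbers was given to vascular tissue.

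PH02Gene01505 was the copy for which the study designed a probe for in situ hybridization, and its target strand is shown because it is the stretch of the transcript that the probe was made to detect. It was 98 bases long with a GC content of 55.1%, and the probe was its exact reverse complement, with 0 mismatches. The capitals mark its 2 runs of the triplet GGT.
PH02Gene01505 probe target: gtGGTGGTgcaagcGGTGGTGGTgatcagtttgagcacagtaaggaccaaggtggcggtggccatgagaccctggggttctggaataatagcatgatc
The sequences of both genes were not compared, so how many reads could belong to either copy was not examined, and the split of UMIs between them is uncertain to that extent.

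Both copies were expressed at a low level, and most cells held no UMI of either. PH02Gene00562 had 501 UMIs in 381 cells of replicate 1 and 527 UMIs in 403 cells of replicate 2. This was 4.98% of the cells (exact Clopper-Pearson 95% interval 4.50 to 5.49%) and 5.27% (4.78 to 5.79%). PH02Gene01505 had 277 UMIs in 232 cells, or 3.03% (2.66 to 3.44%), and 317 UMIs in 251 cells, or 3.28% (2.89 to 3.70%). The intervals here and below cover counting error only. Cells with exactly 1 UMI made up most of these cells, namely 303 and 324 for PH02Gene00562 and 199 and 207 for PH02Gene01505. The highest number in a cell was 8 and 7 for PH02Gene00562, and 4 and 5 for PH02Gene01505. The cells of either copy were deep ones: their median was 7019.5 and 8852 UMIs where only PH02Gene00562 was found and 6956 and 8228.5 where only PH02Gene01505 was found, against 2772 and 3058 in cells with neither. A cell without a UMI therefore cannot be read as a cell without the transcript.

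PH02Gene00562 was highest in matched Cluster 7, one of the clusters the study placed in the root cap. Its level there was 50.8 CPM in replicate 1 and 57.1 CPM in replicate 2, against 10.0 and 8.11 CPM over all other cells, a ratio of 5.07 and 7.04. The 885 cells of this cluster were 5.78% of all kept cells and held 37.5% of the UMIs of PH02Gene00562. Both replicates ranked this cluster first, and its lower replicate lay above the higher replicate of every other cluster. Since the cluster was picked by this level, its test describes the size of the gap. Against the mean of the other clusters the log2 fold change was 3.19 ± 0.15 (SE), with an adjusted p of 7.36e-50 by edgeR, in a comparison in which 22.9% of all genes were called higher.

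A second level of PH02Gene00562 was shared by matched Cluster 11, with 27.8 and 29.8 CPM, and the cluster matched to Clusters 8 and 10, with 35.4 and 18.4 CPM. In the cluster matched to Clusters 8 and 10 the replicates were further apart than in matched Clusters 7 and 11, and 123 of its 202 UMIs came from replicate 1. Both were higher than the mean of the other clusters, with log2 fold changes of 1.96 ± 0.24 (adjusted p 3.34e-12, with 16.5% of all genes called higher) and 2.04 ± 0.18 (adjusted p 4.33e-22, with 38.3% called higher). They did not differ from each other beyond their spread, at a log2 difference of -0.07 ± 0.22 for matched Cluster 11 over the other (edgeR adjusted p 0.837). The next cluster in order, matched to Clusters 1 and 5, had 19.7 and 13.9 CPM and was itself called higher than the mean of the others, at 0.97 ± 0.32 (edgeR adjusted p 0.00884, with 33.5% called higher). The cluster matched to Clusters 8 and 10 lay above it by 1.00 ± 0.28 (edgeR adjusted p 0.00190, with 19.5% called higher).

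Below these levels PH02Gene00562 formed a gradual series. Matched Cluster 0, the largest with 4245 cells, had 15.5 and 12.7 CPM, and matched Clusters 2 and 6 had 6.27 and 5.53 CPM and 6.02 and 3.82 CPM. The unmatched cluster of 729 cells had 14.9 and 14.1 CPM and was called higher than the mean of the others by 0.88 ± 0.25 (edgeR adjusted p 0.00506, with 14.1% called higher). In the unmatched clusters of 641 and 115 cells the level was 11.9 and 4.88 CPM, and 12.9 and 7.38 CPM, from 7 and 3 UMIs in all, and matched Cluster 12 held a single UMI. Of the neighbours in this series only 1 pair passed the edgeR test, matched Cluster 6 over matched Cluster 3, at 1.09 ± 0.36 (adjusted p 0.00802, with 18.2% called higher). The gene was lowest in 4 clusters: matched Cluster 3 with 1.35 and 3.96 CPM, matched Cluster 9 with 1.87 and 2.54 CPM, matched Cluster 4 with 2.85 and 1.35 CPM and the unmatched cluster of 489 cells with 2.71 and 0.993 CPM. All 4 were lower than the mean of the others, by log2 changes of -1.77 (adjusted p 2.78e-05, with 12.9% of all genes called lower), -1.61 (7.90e-04, with 15.2%), -2.09 (2.93e-05, with 11.9%) and -2.27 (4.63e-05, with 13%). These clusters were not shallow, since their median cell held 7582, 9028.5, 6028 and 7627 UMIs, against 7314 UMIs in matched Cluster 7.

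PH02Gene01505 was highest in matched Cluster 11, a different cluster of those placed in the root cap. It had 68.3 CPM in replicate 1 and 63.9 CPM in replicate 2 there, against 5.30 and 5.58 CPM over all other cells, a ratio of 12.9 and 11.5. This cluster had 528 cells, or 3.45% of the total, and held 30.5% of the UMIs of the gene, 91 and 90 of them. Again both replicates ranked it first, and no other cluster reached 12 CPM in either replicate. Matched Cluster 11 was likewise picked by the level of the gene, so its test describes the size of the gap. The log2 fold change against the mean of the other clusters was 4.40 ± 0.21 (edgeR adjusted p 1.57e-47, in the comparison with 16.5% called higher). This value rests in part on matched Cluster 12, whose 41 cells held 0 UMIs of the gene, which allows up to 3 UMIs. Among the clusters of at least 200 cells the value was 4.02 ± 0.18 (edgeR adjusted p 8.26e-36, with 17.3% called higher).

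Outside matched Cluster 11, PH02Gene01505 ranged from a mean of 9.68 CPM in matched Cluster 0 to 0 in matched Cluster 12. Its second cluster by mean, matched Cluster 0, had 9.58 and 9.77 CPM and lay below matched Cluster 11 by a log2 difference of 3.06 ± 0.24 (matched Cluster 11 over matched Cluster 0, edgeR adjusted p 1.36e-25, with 15.5% called higher). The cluster matched to Clusters 8 and 10 had 8.34 and 9.52 CPM, matched Cluster 2 had 8.13 and 7.92 CPM, and matched Cluster 7 had 6.92 and 7.14 CPM. The unmatched clusters of 729 and 641 cells had 5.31 and 7.45 CPM, and 11.9 and 2.44 CPM from 5 and 1 UMIs. The cluster matched to Clusters 1 and 5 had 5.92 and 5.97 CPM, and matched Cluster 3 had 4.27 and 3.13 CPM. From matched Cluster 0 down to matched Cluster 6, with 2.92 and 4.12 CPM, no neighbour in the order passed the edgeR test against the next. A step followed to the unmatched cluster of 489 cells, with 1.08 and 0.497 CPM, which matched Cluster 6 exceeded by 2.29 ± 0.67 (adjusted p 0.00248, with 18.1% called higher). In matched Cluster 4 the gene had 1 UMI in each replicate, or 0.356 and 0.337 CPM. Among the clusters of at least 200 cells, 4 besides matched Cluster 11 were called higher than the mean of the others. The log2 changes were 1.04 ± 0.20 in matched Cluster 2 (edgeR adjusted p 9.29e-06, with 28.7% of all genes called higher) and 0.95 ± 0.22 in the cluster matched to Clusters 8 and 10 (adjusted p 1.23e-04, with 34%). They were 0.86 ± 0.25 in matched Cluster 7 (adjusted p 0.00261, with 26.5%) and 0.66 ± 0.26 in matched Cluster 0 (adjusted p 0.0274, with 30.2%). In the same fit matched Cluster 4 was lower than the mean of the others by a log2 change of -3.99 ± 0.56 (edgeR adjusted p 4.16e-09, with 17.4% called lower), and the cluster of 489 cells by -2.99 ± 0.56 (adjusted p 3.54e-06, with 23.2% called lower). Matched Cluster 3 was also called lower, at -0.66 ± 0.28 (edgeR adjusted p 0.0403, with 22.6% called lower).

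**Figure D1:**
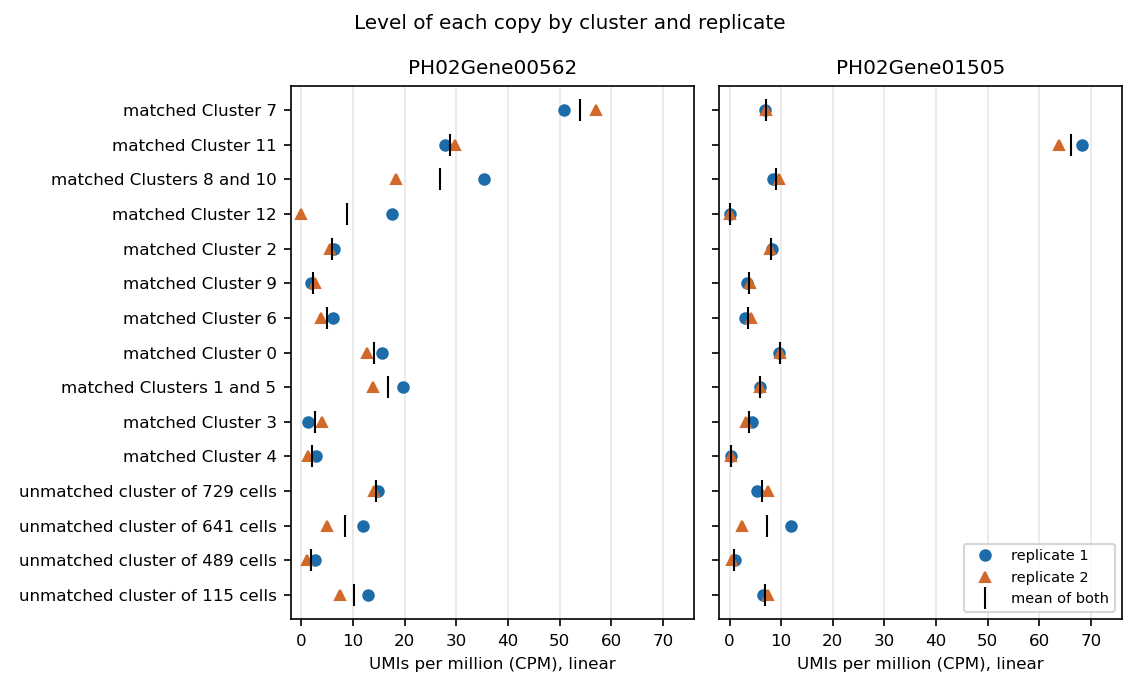
Level (CPM) of PH02Gene00562 (left) and PH02Gene01505 (right) in each cluster on a linear axis, with a circle for replicate 1, a triangle for replicate 2 and a bar at their mean. PH02Gene00562 stands highest in matched Cluster 7 at 50.8 and 57.1 CPM, and PH02Gene01505 in matched Cluster 11 at 68.3 and 63.9 CPM.

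The clusters of both maxima were compared directly. Each was picked as the maximum of a copy, so the directions follow from that choice and the values give the sizes. Between matched Cluster 7 and matched Cluster 11, PH02Gene00562 was higher in matched Cluster 7 by a log2 fold change of 1.15 ± 0.20 (edgeR adjusted p 9.38e-07, with 13% of all genes called higher). PH02Gene01505 was lower in matched Cluster 7, at -2.98 ± 0.23 (edgeR adjusted p 1.93e-25, with 11.8% called lower). Scaling by TMM, by RLE and by total UMIs alone moved the median of all genes in this comparison to -0.08, -0.15 and -0.32, and the share of calls that were higher was 52.3%, 45.4% and 31.3%. In the same order the log2 fold change was 1.15, 1.07 and 0.91 for PH02Gene00562 and -2.98, -3.06 and -3.22 for PH02Gene01505.

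In matched Cluster 7 itself PH02Gene01505 was near its level over all other cells, which include those of matched Cluster 11. Its CPM there was 0.901 and 0.944 times that of all other cells, and against matched Cluster 2 the log2 difference was -0.16 ± 0.27 (edgeR adjusted p 0.682). The contrast with the mean of the other clusters, in which each cluster counts equally and several had few or no UMIs of the gene, gave 1.21 ± 0.38 (adjusted p 0.00647), and 0.95 with an adjusted p of 0.0773 when scaled by total UMIs alone. Among the clusters of at least 200 cells PH02Gene01505 was still called higher there, by 0.86 ± 0.25 (edgeR adjusted p 0.00261, with 26.5% of all genes called higher). PH02Gene00562 in turn was not confined to its first cluster, since its level in matched Cluster 11 was 2.10 and 2.50 times that of all other cells.

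The share of PH02Gene00562 among the UMIs of both copies is a measure that does not depend on scaling. Over all cells it was 64.4% (60.9 to 67.8%) in replicate 1 and 62.4% (59.1 to 65.7%) in replicate 2, from 778 and 844 UMIs. It was 88.0% (82.6 to 92.3%) and 88.9% (84.2 to 92.5%) for matched Cluster 7, and 28.9% (21.2 to 37.6%) and 31.8% (24.0 to 40.5%) for matched Cluster 11. In both replicates the intervals of these clusters lay apart from each other and on opposite sides of the interval of all cells. Each cluster was picked as the maximum of a copy from these same UMIs. The direction of their difference in share follows from that choice, and the values give its size. Without either cluster the share was 64.4% (59.8 to 68.8%) and 57.4% (52.7 to 61.9%). The difference of matched Cluster 11 from all other cells was -39.4 ± 4.37 percentage points (SD, n = 2), at -42.5 points in replicate 1 and -36.3 points in replicate 2.

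The other clusters lay between these ends, and most had too few UMIs to be told apart. Matched Cluster 2 had 43.5% (32.8 to 54.7%) and 41.1% (29.7 to 53.2%), below the interval of all cells in both replicates. The cluster matched to Clusters 8 and 10 was above it in replicate 1, at 80.9% (73.8 to 86.8%), and overlapped it in replicate 2, at 65.8% (56.6 to 74.2%). Matched Cluster 9 had only 14 and 18 UMIs of both copies, with shares of 35.7% (12.8 to 64.9%) and 38.9% (17.3 to 64.3%). Matched Cluster 3 was the least settled, at 24.0% and 55.9% from 25 and 34 UMIs.

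**Figure D2:**
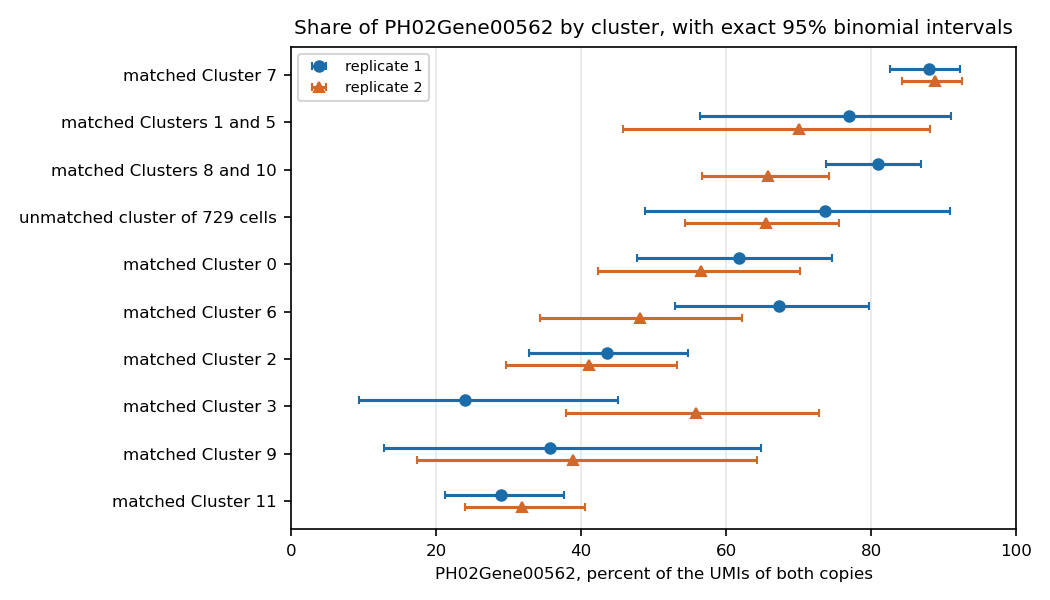
Share of PH02Gene00562 among the UMIs of both copies (percent) by cluster, for clusters with at least 30 UMIs of both copies over both replicates, with points for replicates 1 (circle) and 2 (triangle) and bars for exact 95% binomial intervals. Matched Cluster 7 lies at 88.0 and 88.9%, and matched Cluster 11 at 28.9 and 31.8%.

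The study ordered Clusters 9, 2 and 11 along the development of the root cap, from initial cells over transition cells, and both copies increased along that order. For PH02Gene00562 the levels were 1.87 and 2.54 CPM (matched Cluster 9), 6.27 and 5.53 CPM (matched Cluster 2) and 27.8 and 29.8 CPM (matched Cluster 11). For PH02Gene01505 they were 3.36 and 4.0 CPM, then 8.13 and 7.92 CPM, then 68.3 and 63.9 CPM. The replicates of neighbouring steps did not overlap for either copy. The first step, matched Cluster 2 over matched Cluster 9, was 1.26 ± 0.44 for PH02Gene00562 (edgeR adjusted p 0.0282) and 0.97 ± 0.35 for PH02Gene01505 (adjusted p 0.0319), on the log2 scale, where 8.16% of all genes were called higher. It rested on 12 and 20 UMIs in matched Cluster 9.

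The second step was larger for both copies. Matched Cluster 11 over matched Cluster 2 gave 2.07 ± 0.28 for PH02Gene00562 (edgeR adjusted p 3.14e-11) and 2.83 ± 0.21 for PH02Gene01505 (adjusted p 3.70e-28), with 21.7% of all genes called higher. The median of all genes in this comparison was 0.10, 0.21 and 0.31 under TMM, RLE and total UMIs alone, and 53.3%, 59.5% and 64.9% of the calls were higher. From the initial to the last cluster the log2 fold change was 3.33 ± 0.39 for PH02Gene00562 (edgeR adjusted p 6.90e-14) and 3.80 ± 0.28 for PH02Gene01505 (adjusted p 4.16e-28), with 23.4% called higher. Whether the steps differed between the copies was not tested.

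Cell counts gave the same maxima as the levels. A UMI of PH02Gene00562 was held by 26.6% (replicate 1) and 31.3% (replicate 2) of the cells of matched Cluster 7, or 120 of 451 and 136 of 434 cells. In matched Cluster 11, 24.1% and 21.7% held a UMI of PH02Gene01505, or 65 of 270 and 56 of 258 cells. No cluster is known to lack either gene, so matched Cluster 4, where both were near their lowest level, is set beside them. At a median of 6028 UMIs per cell, 1.70% and 0.913% of its cells had PH02Gene00562 and 0.213% and 0.228% had PH02Gene01505. The medians of matched Clusters 7 and 11 were 7314 and 4974.5 UMIs. With every cell thinned to 500 UMIs the shares were 2.00% and 3.23% for PH02Gene00562 in matched Cluster 7, against 0.640% and 0.588% over all cells, and 1.48% and 1.94% for PH02Gene01505 in matched Cluster 11, against 0.353% and 0.288%. These thinned shares came from 9 and 14 cells and from 4 and 5 cells.

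Cells with several UMIs of a copy were found in these clusters and in others. Of the 22 and 28 cells with at least 3 UMIs of PH02Gene00562, 11 and 19 were in matched Cluster 7, and 1 in each replicate was in matched Cluster 11. The cell with most UMIs of PH02Gene00562, 8 in replicate 1, lay in the cluster matched to Clusters 8 and 10, and the highest number in a cell of matched Cluster 7 was 4 in replicate 1 and 7 in replicate 2. Of the 9 and 17 cells with at least 3 UMIs of PH02Gene01505, 5 and 9 were in matched Cluster 11, and 0 and 1 were in matched Cluster 7. With the cells split into 3 equal parts by their UMIs, depth did not order the level of PH02Gene00562 in matched Cluster 7, where its CPM was 50.2, 63.6 and 43.5 for the cells of low, middle and high depth in replicate 1 and 58.4, 56.6 and 57.0 in replicate 2. PH02Gene01505 in matched Cluster 11 had 70.2, 63.8 and 70.4 CPM in replicate 1, and 13.8, 66.6 and 71.2 CPM in replicate 2, where the lowest value came from 2 UMIs in 86 cells.

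Cells that held both copies were few, 33 in replicate 1 and 29 in replicate 2. Cells with PH02Gene00562 only numbered 348 and 374, and cells with PH02Gene01505 only numbered 199 and 222. If the copies fell on the cells of each cluster independently, the products of their shares, summed over clusters, would give 20.3 and 24.3 cells with both, and depth also differs among cells of a cluster. In matched Cluster 11, 11 and 12 cells held both, where the products gave 6.74 and 6.73. In the cluster matched to Clusters 8 and 10, 11 and 5 cells held both, where the products gave 4.41 in each replicate. For matched Cluster 7 the numbers were 2 and 8, where the products gave 5.59 and 7.52. The cells with both were deep, with medians of 8523 and 10289 UMIs, and doublets were not removed. Their part in these counts was not tested.

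**Figure D3:**
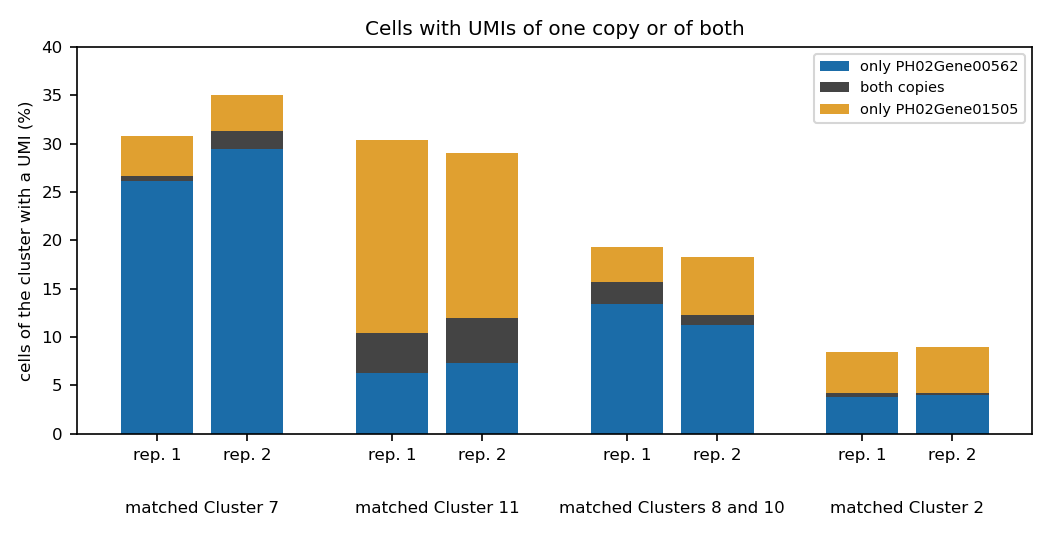
Percent of the cells of 4 clusters with UMIs of PH02Gene00562 only, of both copies and of PH02Gene01505 only, stacked from an axis that starts at 0, with a bar for each replicate. In matched Cluster 7 most positive cells held PH02Gene00562 only (118 and 128 cells), and in matched Cluster 11 most held PH02Gene01505 only (54 and 44 cells).

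The study's list holds 3 entries for AT5G62940, and the third, PH02Gene03321, was measured beside the 2 copies. It had 499 and 535 UMIs in 411 and 445 cells. It was highest in matched Cluster 11, the cluster in which PH02Gene01505 was highest, at 51.0 and 61.7 CPM. Next by mean came 4 clusters of similar level: matched Cluster 7 at 26.8 and 26.7 CPM, the cluster matched to Clusters 1 and 5 at 27.6 and 23.9 CPM, the cluster matched to Clusters 8 and 10 at 27.6 and 23.0 CPM, and the unmatched cluster of 641 cells at 23.8 and 22.0 CPM. Between matched Cluster 7 and matched Cluster 11 its log2 fold change was -0.84 ± 0.18 (edgeR adjusted p 1.05e-04). Along matched Clusters 9, 2 and 11 its levels were 2.99 and 1.82 CPM, then 11.3 and 11.1 CPM, then 51.0 and 61.7 CPM, in the same direction as both copies.

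**Figure D4:**
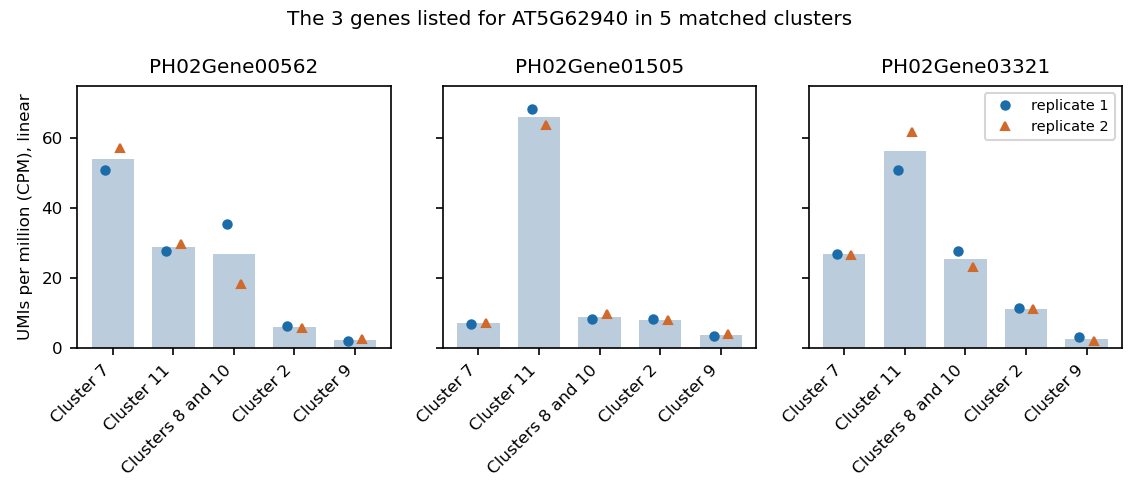
Mean level in CPM (bars from 0, linear axis) of the 3 genes listed for AT5G62940 in 5 matched clusters, with replicates 1 (circle) and 2 (triangle). PH02Gene00562 peaks in matched Cluster 7, and PH02Gene01505 and PH02Gene03321 peak in matched Cluster 11.

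Of the other DOF genes that were looked up, PH02Gene38190, listed as the ortholog of TMO6, had 0 UMIs in both libraries. PH02Gene00304, described as a DOF zinc finger protein, had 5014 UMIs and was highest in the unmatched cluster of 641 cells, at 305 and 313 CPM. Its levels were 49.3 and 51.6 CPM (matched Cluster 7) and 71.3 and 65.3 CPM (matched Cluster 11). Between these 2 clusters its log2 difference was -0.19 ± 0.16 (matched Cluster 7 over matched Cluster 11, edgeR adjusted p 0.423).

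Orthologs of other vascular genes from the study's list were read in the same clusters, 33 genes of which 27 passed the filter on low counts. PH02Gene17668, also listed for the procambium gene AT1G68810, was left out because it is a marker by which Cluster 7 was matched. It was called higher by edgeR in matched Cluster 7, by 1.42 (adjusted p 1.15e-50), and in matched Cluster 11, by 0.62 (adjusted p 2.05e-13), on the log2 scale. In matched Cluster 11, where PH02Gene01505 was highest, 5 of the 27 were called higher and 2 lower. These were 18.5% and 7.41%, beside 16.5% and 7.27% of all genes tested. The median log2 fold change of the 27 was -0.00, against 0.18 for all genes. In matched Cluster 7, where PH02Gene00562 was highest, 3 were called higher and 8 lower, or 11.1% and 29.6%, beside 22.9% and 12% of all genes, and their median was -0.42, against 0.09. Under scaling by total UMIs alone the median of all genes in matched Cluster 7 was -0.18, the share of calls that were higher was 42.6% in place of 65.6%, and 3 orthologs were called higher and 10 lower. Of the 33 orthologs, 1 was highest in matched Cluster 7 and 1 in matched Cluster 11. Most orthologs of CESA4 (xylem) and of ATHB-8 (procambium) were highest in the unmatched cluster of 641 cells. That cluster was shallow, with a median of 1068 UMIs per cell, and held 7 UMIs of PH02Gene00562 and 6 of PH02Gene01505 in all. Their mean levels there were 8.40 and 7.18 CPM, against 13.1 and 7.57 CPM over all kept cells.

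The list held 1 phloem gene. PH02Gene09101 is the ortholog of APL, a MYB-type factor required for phloem identity, and it was rare, with 43 UMIs in all cells. Of these, 27 (62.8%) were in 24 cells of matched Cluster 11, at 12 and 7.81 CPM, against 0.257 and 0.172 CPM over all other cells, and it was called higher by edgeR (adjusted p 2.10e-15). Its level was higher still in matched Cluster 12, at 17.6 and 12.3 CPM, but from only 1 UMI in each replicate. Within matched Cluster 11, a UMI of PH02Gene01505 was present in 5 of the 14 cells with PH02Gene09101 in replicate 1 and in 4 of 10 in replicate 2. A UMI of PH02Gene00562 was present in 4 and 3 of these cells. The products of the shares gave 3.37 and 2.17 cells for PH02Gene01505 and 1.45 and 1.20 for PH02Gene00562. Depth differed among the cells of this cluster, with medians of 6447 and 7562.5 UMIs where only PH02Gene01505 was found. The medians were 3934.5 and 3954 UMIs in its cells with neither copy. The part of depth in these counts was not tested. The fitted fold change of PH02Gene09101 is plotted with the other orthologs but is no measure of size, since several clusters held 0 of its UMIs.

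Of the 10 procambium orthologs tested, 3 were called higher and 0 lower in matched Cluster 11, and 2 higher and 0 lower in matched Cluster 7, where 16.5% and 22.9% of all genes tested were called higher. PH02Gene35449 and PH02Gene01734 are orthologs of AT1G68810, a bHLH factor of the TMO5 group that promotes divisions in the young vascular cylinder. The level of PH02Gene35449 in matched Cluster 11 was 13.5 and 8.52 CPM, against 2.31 and 2.04 CPM over all other cells (log2 fold change 2.77 ± 0.44 against the mean of the other clusters, edgeR adjusted p 4.25e-08). PH02Gene35449 was not particular to this cluster, with 10.9 CPM in each replicate of the cluster matched to Clusters 1 and 5, and 52.9 and 37.0 CPM from 3 UMIs each in matched Cluster 12. In matched Cluster 11, PH02Gene01734 had 115 and 132 CPM and a log2 fold change of 0.56 ± 0.11 (edgeR adjusted p 1.24e-05). It was also higher in matched Cluster 7 by 0.79 (adjusted p 5.16e-15). PH02Gene34818, an ortholog of the HD-ZIP III factor ATHB-8 of procambium, was called higher in matched Cluster 11 by 1.44 ± 0.43 (edgeR adjusted p 0.00563). Its level of 9.75 and 13.5 CPM in matched Cluster 11 was below that of 81.0 and 46.4 CPM in the unmatched cluster of 641 cells. A further AT1G68810 ortholog, PH02Gene12248, was highest in matched Cluster 7, at 145 and 146 CPM, and was higher there by 1.25 (adjusted p 2.26e-30).

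Of the 16 xylem orthologs tested, 1 was called higher and 2 lower in matched Cluster 11, and 1 higher and 8 lower in matched Cluster 7. Of all genes tested, 16.5% were called higher and 7.27% lower in matched Cluster 11, and 22.9% and 12% in matched Cluster 7. The one higher in matched Cluster 11 was PH02Gene13967, 1 of the orthologs of the secondary wall cellulose synthase CESA4, which differed by 0.71 ± 0.18 (edgeR adjusted p 0.00122), at 36.0 and 32.6 CPM, against 272 and 230 CPM in its highest cluster, the unmatched cluster of 641 cells. PH02Gene45588 and PH02Gene20438, orthologs of the xylem cysteine peptidase XCP2, were lower by log2 changes of -0.98 ± 0.20 (adjusted p 1.39e-05) and -1.85 ± 0.56 (adjusted p 0.00757). The one higher in matched Cluster 7 was PH02Gene10076, an ortholog of the peptidase XCP1, by 1.17 (adjusted p 3.43e-29), at 232 and 212 CPM, against 507 and 549 CPM in its highest cluster, the unmatched cluster of 641 cells.

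**Figure D5:**
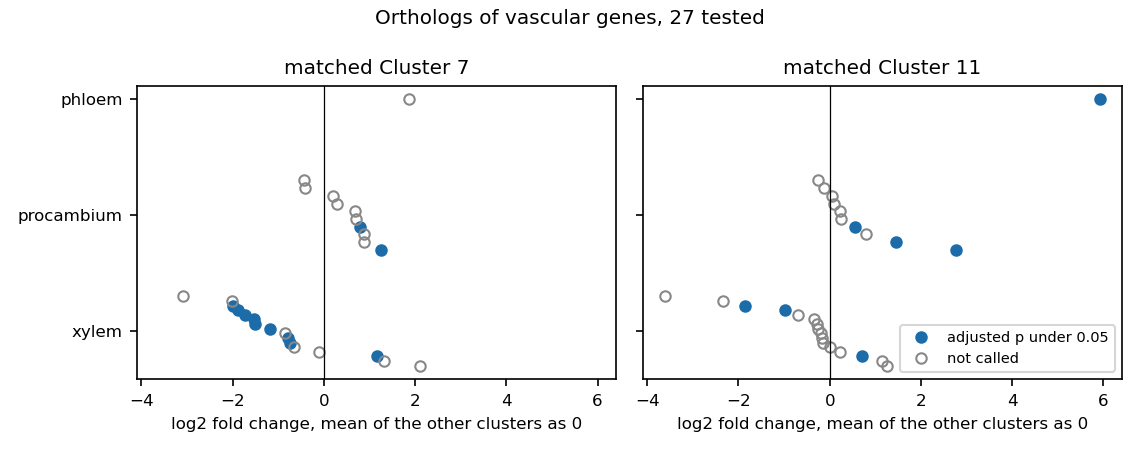
Log2 fold change of the 27 vascular orthologs tested against the mean of the other clusters, in matched Cluster 7 (left) and matched Cluster 11 (right), by the tissue of their Arabidopsis or rice gene; filled points passed an adjusted p of 0.05 by edgeR. In matched Cluster 7, 2 procambium orthologs and 1 xylem ortholog were higher and 8 xylem orthologs lower, where 22.9% and 12% of all genes were called higher and lower. In matched Cluster 11 the phloem ortholog, 3 procambium orthologs and 1 xylem ortholog were higher and 2 xylem orthologs lower, where these shares were 16.5% and 7.27%. The position of the phloem ortholog is no measure of size.

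The genes whose levels ran most like those of each copy were found by Pearson correlation of log2(CPM + 1) over the 30 sums of cluster and replicate, among 18156 genes with at least 200 UMIs. The sums of a replicate share a library and small clusters have shallow sums, so the values are a description. For PH02Gene00562 the first were PH02Gene30005 (r = 0.91), PH02Gene37962 (0.90), PH02Gene03321 (0.90), PH02Gene19540 (0.89) and PH02Gene42960 (0.89). PH02Gene03321 thus had rank 3 among all genes, whereas PH02Gene01505, at 0.65, had rank 625. PH02Gene37962, PH02Gene19540 and PH02Gene42960 were highest in matched Cluster 7, as PH02Gene00562 was, and PH02Gene30005 in matched Cluster 11.

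For PH02Gene01505 the first were PH02Gene15627 (r = 0.80), PH02Gene02570 (0.79), PH02Gene26026 (0.79), PH02Gene10195 (0.79) and PH02Gene45238 (0.78). PH02Gene15627 and PH02Gene26026, described as a heavy metal-associated isoprenylated protein, are the markers by which Cluster 11 was matched, and they had 891 and 817 CPM and 260 and 243 CPM there. PH02Gene02570 was also highest in matched Cluster 11, at 24.8 and 28.4 CPM. The remaining 2 were highest elsewhere, PH02Gene10195 in matched Cluster 7 and PH02Gene45238 in the cluster matched to Clusters 1 and 5. PH02Gene03321 had rank 22 for this copy, at 0.75, and PH02Gene00562 had rank 138.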

How the data were processed

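Both libraries were made with the droplet-based 3′ kit and sequenced by the authors, who counted UMIs per gene and barcode with Cell Ranger 5.0.1 and STAR against a moso bamboo genome. The deposited values are these counts, without normalization, for 7668 and 7656 barcodes. The cells used had over 500 genes and over 500 UMIs each. The mitochondrial filter of the study was not applied, since the identifiers name no mitochondrial genes, and doublets were not removed. The members and the gene lists were chosen with earlier results of these data known.

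The cells of both replicates were merged without integration and clustered with Seurat 5.3.0 (R 4.3.3) on 2000 variable genes, from which the members, the vascular list and the study's markers were taken out, leaving 1977. An exact principal component analysis was used because the approximate one gave other clusters on other processors. With 20 components and a resolution of 0.8 there were 15 clusters. A number of the study was given to the cluster in which the z-scores of its markers were, on average, highest.

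The 30 sums of UMIs over the cells of a cluster in a replicate were fitted with edgeR 4.0.16 (quasi-likelihood test, TMM, filterByExpr), with p-values of 23907 genes adjusted by Benjamini-Hochberg and called under 0.05. The fit was also run on simulated counts with known changes. There the sums of a library shared no effect and genes of low level were not changed, so neither the pairing nor recovery at low levels was checked. P-values rest on the spread between the 2 libraries, pooled over all clusters and moderated across genes. They do not measure the spread of a gene in a single cluster. The fit took sums of the same library as independent, and cells were not treated as replicates. The genes named were the members, 3 other DOF genes, the 5 most alike genes of each copy, the vascular orthologs with the 5 largest and 5 smallest changes among those called in matched Cluster 11, and its markers. PH02Gene10076, PH02Gene12248 and PH02Gene17668 were added after their values were seen. Sums that carry the same replicate number come from the same library and are paired by construction. Over 105 pairs of clusters, the correlation between the deviations of such sums had a median of 0.01 and a range of -0.02 to 0.04.

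The alternatives covered the cell filter, resolutions of 0.6 and 1.0, 30 components, cells of at least 2000 UMIs, the variable genes, RLE scaling, no filter on low counts, DESeq2 1.42.0, a replicate block and each replicate left out. Those without clusters under 200 cells, with total UMIs as the only scaling and with another random seed, and the contrast of matched Clusters 7 and 11, were chosen after seeing the data. Other steps used Matrix 1.6.5, Python 3.11.15, numpy 2.4.6, scipy 1.17.1, pandas 2.3.3 and matplotlib 3.10.9. Annotation and sequence of the genome were not used here, so positions are not given.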

Additional observations from a re-analysis of the deposited data

How the results depend on the processing

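PH02Gene00562 was highest in matched Cluster 7, and PH02Gene01505 in matched Cluster 11, under all 15 alternatives. Only the alternatives that clustered the cells anew could change this. The others took the highest cluster from the same sums of both replicates. With more than 200 genes per cell and with at least 2000 UMIs, Clusters 11 and 12 took the same cluster. Of 137 values recomputed under an alternative, 128 stayed on their side of the threshold or within the replicate spread, 9 moved and 0 changed direction. The log2 fold change in the highest cluster ranged from 2.89 (total UMIs alone) to 3.77 (30 components) for PH02Gene00562 and from 4.0 (DESeq2) to 4.88 (30 components) for PH02Gene01505. With 1 library left out there is no test. PH02Gene00562 then gave 3.00 to 3.99 in its highest cluster and PH02Gene01505 gave 4.44 to 4.49. Matched Cluster 7 over matched Cluster 11 gave 1.18 to 1.19 for PH02Gene00562 and -2.98 to -2.91 for PH02Gene01505, and matched Cluster 11 over matched Cluster 2 gave 1.81 to 2.23 for PH02Gene00562 and 2.74 to 2.81 for PH02Gene01505. Counts of genes called cannot be given for 1 library. Among cells of at least 2000 UMIs, 7.57% held PH02Gene00562 and 4.77% held PH02Gene01505, against 5.12% and 3.16% of all kept cells.

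The fit with a replicate block gave 3.20 for PH02Gene00562 and 4.40 for PH02Gene01505 in their highest clusters, and 3985 genes higher in matched Cluster 11 in place of 3934, and the pairing changed no call of either copy in any cluster. Depth limits what can be said of cells, since most positive cells held 1 UMI, and the clusters with fewer than 3 UMIs of a copy set no order among themselves.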
